A study of Homo sapiens with 4 samples.

Results

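The transcription factor AP-1 is a pair of basic leucine zipper (bZIP) proteins, and 10 genes that encode such proteins are described here in U87 cells, a human malignant glioma line. They are the 4 Fos genes (FOS, FOSB, FOSL1, FOSL2), the 3 Jun genes (JUN, JUNB, JUND) and 3 relatives that can pair with them (ATF3, BATF3, MAFF). The genes were taken by symbol from the deposited table of 19314 genes, and the set was chosen with earlier results of these data known. All 10 had a value above 0 in at least 1 library and so belonged to the 16595 genes tested. With PTPRN knockdown, the mean FPKM of FOSL1 rose 4.98-fold to 575 and became the most abundant bZIP transcript among 37 examined. ATF3, FOSB, JUNB, BATF3, MAFF and FOS also rose, FOSL2 and JUND fell, and JUN did not pass the test.

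The study asked how knockdown of PTPRN, a receptor-type protein tyrosine phosphatase family member known from neuroendocrine secretory vesicles, changes the transcriptome of glioma cells. In assays of its own, the paper reports less proliferation and less migration of U87 cells after PTPRN knockdown. How the RNA levels below relate to those assays was not tested. Total RNA of U87 cells was sequenced in 4 libraries with single-end reads of 50 bases. The 2 libraries labelled PTP2 have the genotype PTPRN knockdown, made with a short-hairpin RNA in the pLKO.1 vector, and the 2 libraries labelled SCR carry a control hairpin that matches no human coding gene. All 4 libraries come from the same cell line without other treatment in the labels, and nothing says whether the libraries of a group came from separate cultures, so p-values measure the spread between these libraries only. Only 1 knockdown label, PTP2, was sequenced, and the growth protocol in the labels names hCMEC/D3, a brain endothelial line, while the cell line label is U87.

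Fos proteins have no stable pairs among themselves and bind DNA together with a Jun protein, whereas Jun proteins can also pair with each other. The pair grips DNA with a basic region that precedes the zipper, at the AP-1 site TGACTCA or at the cyclic AMP response element TGACGTCA. FOS, FOSB and ATF3 are classical early response genes, while FOSL1 (Fra-1) and FOSL2 (Fra-2) are more sustained, and in gliomas and other tumours FOSL1 is known for its link to mesenchymal and invasive states. Small Maf proteins such as MAFF lack an activation domain, and ATF3 and BATF3 can act as repressors.

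The part of the members that reads DNA is printed first, because it is what makes these genes a family. Shown are the 27 coding bases (9 codons) of the bZIP signature of the basic region, 5′ to 3′ on the coding strand, read from GENCODE 29 transcripts on GRCh38. Capitals mark bases that differ from FOSL1. Every stretch lies within a coding exon.
FOSL1, chr11:65894050-65894076, minus strand, exon 3 of 4: aacaagctggctgcggccaagtgcagg
FOSL2, chr2:28408804-28408830, plus strand, exon 3 of 4: aacaagctggctgcAgccaagtgcCgg
FOS, chr14:75280605-75280631, plus strand, exon 3 of 4: aaTaagAtggctgcAgccaaAtgcCgC
FOSB, chr19:45471239-45471265, plus strand, exon 3 of 4: aaTaaActAgcAgcAgcTaaAtgcagg
JUN, chr1:58782261-58782287, minus strand, exon 1 of 1: aacCGCAtCgctgcCTccaagtgcCgA
JUNB, chr19:12792603-12792629, plus strand, exon 1 of 1: aacCGgctggcGgcCAccaagtgcCgg
JUND, chr19:18280627-18280653, minus strand, exon 1 of 1: aacCGCAtCgcCgcCTccaagtgcCgC
ATF3, chr1:212618172-212618198, plus strand, exon 3 of 4: aaTaagAtTgcAgcTgcAaagtgcCgA
BATF3, chr1:212696997-212697023, minus strand, exon 2 of 3: aacCGAGtTgctgcTCAGaGAAgTCgg
MAFF, chr22:38214564-38214590, plus strand, exon 3 of 3: aacCGTGGCTACgcCgccaGCtgcCgC

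FOSL2 shared 25 of these 27 bases with FOSL1, and all 9 codons gave the same amino acids. FOSB also had all 9 codons in common at the amino acid level while only 20 bases were the same. FOS and ATF3 each matched FOSL1 in 8 of 9 codons. JUNB matched in 7 codons, JUN and JUND in 6, MAFF in 5 and BATF3 in 4. FOSL2, the member closest to FOSL1 over these bases, had the opposite direction with PTP2.

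The targeted gene was lower in the libraries labelled PTP2. PTPRN (Gene ID 5798) had 12.1 and 11.7 FPKM in the PTP2 libraries and 84.8 and 85.0 in the SCR libraries, with a log2 fold change of -2.74 (SE 0.03, adjusted p = 1.48e-04). FPKM, a read level scaled to transcript length and library size, is a level per length, so values of different genes can be set side by side. The fold changes below are PTP2 minus SCR on the log2(FPKM + 1) scale, which understates the change of low genes, and their adjusted p-values come from limma over all 16595 genes. Depth was estimated from the smallest steps of the FPKM values at 18300000 to 19800000 reads per library. Markers of other cell types were low. No endothelial marker reached 10 FPKM (9 listed, summed level 3.98 to 4.42 with PTP2 and 4.66 in both SCR libraries), and no epithelial marker did (7 listed, 3.07 to 3.29 against 10.2 to 10.4). Of 8 myeloid markers only CD68 reached 10 FPKM, AIF1 had no value, and the sum, almost all CD68, was 345 to 363 against 237 to 238. CD68 rose (log2 fold change 0.59) while CD14 (-0.52) and CSF1R (-0.43) fell. The astroglial markers GFAP and S100B were under 1 FPKM in every library and AQP4 had no value, while the summed level of the list, mostly VIM, was 4578 to 4780 with PTP2 and 1939 to 2017 with SCR. Of the 6 astroglial markers with a value, VIM and SLC1A3 rose and NES and GFAP fell, NES from 13.0 and 14.2 FPKM with SCR to 3.12 and 3.39 with PTP2 (log2 fold change -1.78, SE 0.06, adjusted p = 4.07e-04). Of the CDKN2A locus, which U87 is known to lack, the 2 genes with a value summed to 0.19 to 0.34 FPKM. The part of any of these markers in the results was not tested. In bulk RNA, fewer cells of a type and less RNA per cell cannot be told apart.

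With an adjusted p up to 0.05 taken as passing, 7 of the 10 members rose, 2 fell and 1 did not pass. Among all genes tested, 30.8% rose and 27.1% fell by this rule, so a call by itself is common in these libraries. The stricter thresholds were those of the study, 2-fold or more and an adjusted p no higher than 0.001, applied here to log2(FPKM + 1). By these, 3 members rose (FOSL1, ATF3 and FOSB) and 0 fell, where 2.63% of all genes rose and 4.06% fell. FOS, with a 2.37-fold ratio of mean FPKM, missed 2-fold on this scale. At an unadjusted p below 0.05, 9 of the 10 members passed, as did 62.2% of all genes. When only the 11480 genes with at least 1 FPKM in 2 or more libraries were fitted, 80% of them passed, again with 9 members. A member that passes is therefore common among expressed genes. The median log2 fold change was 0.73 over the members and 0.01 over all genes. Since the members were chosen with earlier results of these data known, their counts and median beside those of all genes are a description. The libraries of both groups did not overlap for 7 members that were higher and 2 that were lower, against 39.7% and 35.8% of all genes. Leaving out any 1 of the 4 libraries left 0 genes of the whole table, and so 0 members, past the stricter thresholds. In each of these cases 9 members had an unadjusted p below 0.05, as did 52.4% to 53% of all genes.

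**Figure D1:**
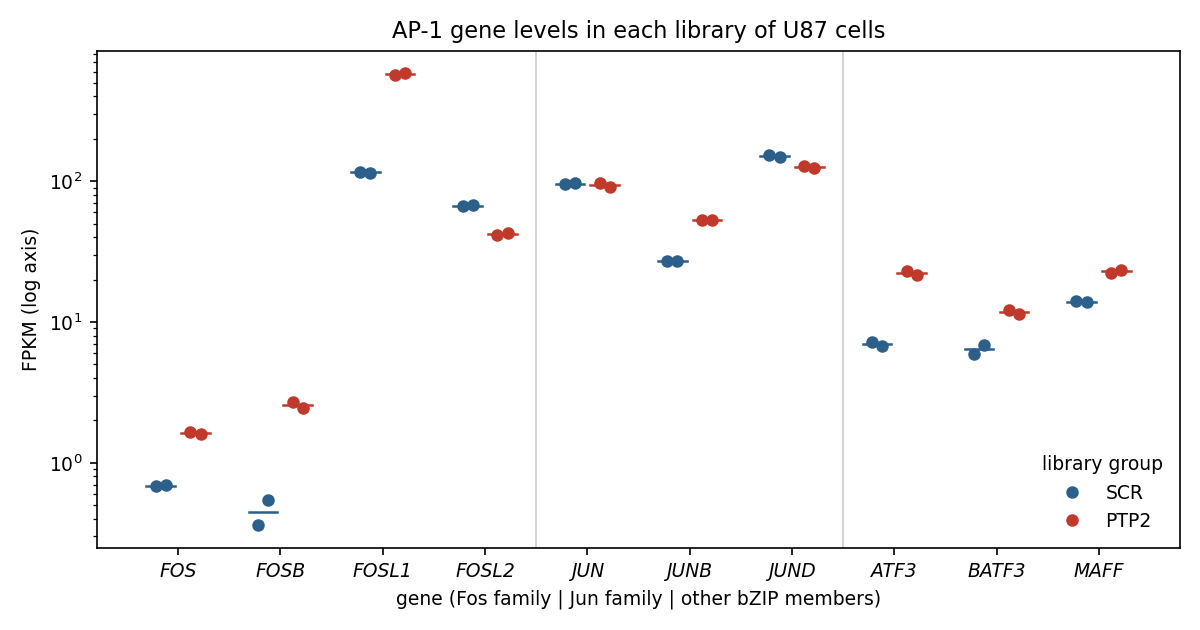
FPKM of the 10 AP-1 genes on a log axis, with a point for each library and a line at the mean of the 2 libraries of a group (SCR blue, PTP2 red). The PTP2 points of FOSL1, near 575 FPKM, stand above all others, and JUN is the gene whose points overlap between groups.

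The Fos genes held both the largest rise and the largest fall among the members. FOSL1 (Gene ID 8061, GRCh38 chr11:65892136-65900526, minus strand) encodes Fra-1, which lacks the activation domain of FOS. Its level was 566 and 584 FPKM in the PTP2 libraries and 117 and 115 FPKM in the SCR libraries. The groups lay far apart, and the libraries of a group differed little. The mean was 575 ± 12.1 FPKM with PTP2 and 116 ± 1.47 FPKM with SCR (SD, n = 2 each). The log2 fold change was 2.30 (SE 0.03, adjusted p = 1.53e-04), and it ran from 2.08 to 2.33 over 12 other ways of processing. FOSL1 went from place 544 to place 106 among all genes ordered by mean FPKM, and 52 genes had a larger log2 fold change.

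FOSL2 (Gene ID 2355, chr2:28392912-28414649, plus strand) encodes Fra-2, the closest relative of Fra-1. It had 41.2 and 42.7 FPKM with PTP2 and 66.8 and 67.4 FPKM with SCR. Both PTP2 libraries were below both SCR libraries, opposite to FOSL1. FOSL2 fell by 0.66 on the log2 scale (SE 0.03, adjusted p = 6.64e-04). An antisense gene overlaps 2225 bases of FOSL2 on the other strand in GENCODE 29. Whether the counting used strand is not given in the sources used here, and without it reads of overlapping genes cannot be told apart.

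FOS and FOSB, the early response genes of the family, were near the bottom of the range. FOS (Gene ID 2353, chr14:75278778-75282234, plus strand) had 1.66 and 1.59 FPKM with PTP2 and 0.68 and 0.69 FPKM with SCR. These values stand for about 64 and 61 reads against 28 and 27. The 95% Poisson intervals, which cover counting error only, were 49.3 to 81.7 and 46.7 to 78.4 reads with PTP2 and 18.6 to 40.5 and 17.8 to 39.3 reads with SCR, so they did not overlap between groups. The log2 fold change of FOS was 0.64 (SE 0.03, adjusted p = 6.28e-04) and became 1.14 with a pseudocount of 0.1.

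FOSB (Gene ID 2354, chr19:45467995-45475179, plus strand) had 2.71 and 2.46 FPKM with PTP2 and 0.36 and 0.54 FPKM with SCR. Estimated reads were 185 and 168 against 27 and 37. The log2 fold change was 1.31 (SE 0.08, adjusted p = 9.45e-04), and 2.31 with a pseudocount of 0.1. FOSB lies wholly inside the annotated span of ERCC1, a DNA repair gene on the other strand. ERCC1 had 77.6 and 77.1 FPKM with PTP2 and 42.3 and 37.9 FPKM with SCR (log2 fold change 0.93, SE 0.06, adjusted p = 0.00116). Both genes were therefore higher in the same libraries, and the part of ERCC1 reads in the FOSB value was not tested.

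**Figure D2:**
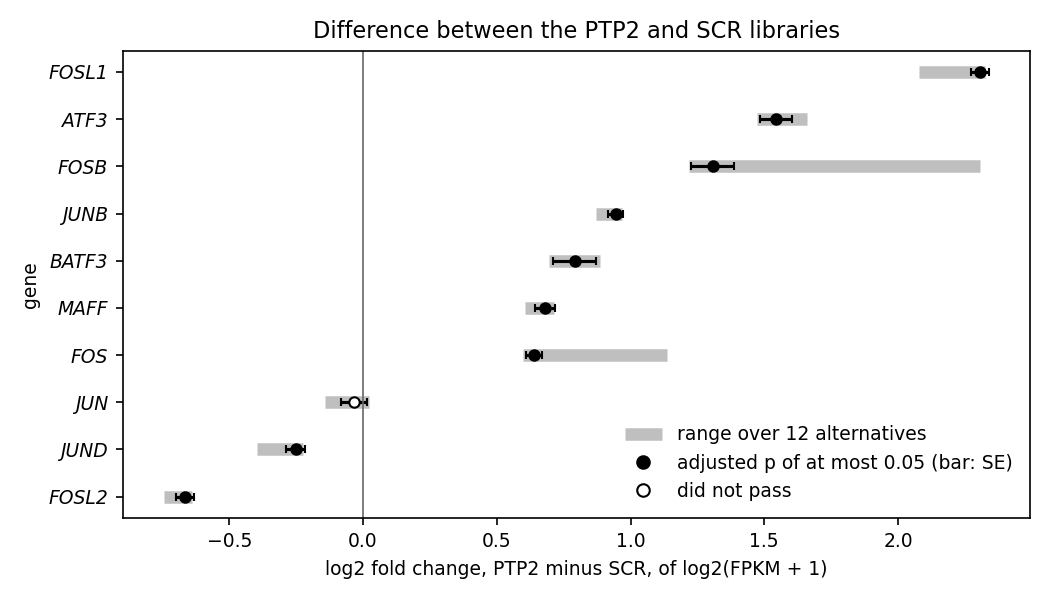
Log2 fold change of each AP-1 gene, PTP2 minus SCR, of log2(FPKM + 1), with SE as black bars and the range over 12 alternatives as grey bars (filled points: adjusted p of at most 0.05). FOSL1 is highest at 2.30, FOSL2 lowest at -0.66, and the range of JUN crosses 0.

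Of the Jun genes, JUNB rose, JUND fell and JUN did not pass the test. JUN (Gene ID 3725, chr1:58780791-58784113, minus strand), the main partner of Fos proteins, had 97.6 and 90.4 FPKM with PTP2 and 95.8 and 96.4 FPKM with SCR. The PTP2 libraries fell on both sides of the SCR libraries. The log2 fold change was -0.03 (SE 0.05, adjusted p = 0.622) and ranged from -0.14 to 0.02 over the alternatives, with the only positive value when PTP2 replicate 2 was left out. JUN thus had no detectable difference in FPKM as deposited, which does not show that the levels were equal. With quantile normalization it was -0.14, and all 10 members then had an unadjusted limma p below 0.05. With median-ratio scaling it was -0.11 and with TPM rescaling -0.10. JUN did not pass an adjusted p of 0.05 in any of these.

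JUNB (Gene ID 3726, chr19:12791496-12793311, plus strand), a weaker activator than JUN, had 52.8 FPKM in both PTP2 libraries and 26.92 and 26.97 FPKM in the SCR libraries. The libraries of a group were almost the same, and the groups lay 1.96-fold apart. This gave a log2 fold change of 0.94 (SE 0.03, adjusted p = 3.36e-04), just under the 2-fold threshold. JUNB overlaps the span of HOOK2 on the other strand, and HOOK2 went the other way, with 3.73 and 3.96 FPKM with PTP2 and 7.57 and 7.39 FPKM with SCR.

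JUND (Gene ID 3727, chr19:18279694-18281656, minus strand), which many resting cells express, had 127 and 125 FPKM with PTP2 and 153 and 147 FPKM with SCR. Both PTP2 libraries were lower. The difference was small, with a log2 fold change of -0.25 (SE 0.04, adjusted p = 0.00730). JUND no longer passed without PTP2 replicate 1 (-0.27) or without PTP2 replicate 2 (-0.24). Its adjusted p ran from 0.00147 to 0.0699 over the alternatives.

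ATF3, BATF3 and MAFF all rose. ATF3 (Gene ID 467, chr1:212565334-212620777, plus strand), a stress-induced factor, had 23.1 and 21.5 FPKM with PTP2 and 7.26 and 6.71 FPKM with SCR. The PTP2 libraries were clearly above the SCR libraries, with a 3.19-fold ratio of means. ATF3 had a log2 fold change of 1.54 (SE 0.06, adjusted p = 4.42e-04). BATF3 (Gene ID 55509, chr1:212686417-212699985, minus strand), known from dendritic cell development, lies 65639 bases from ATF3. It had 12.1 and 11.5 FPKM with PTP2 and 5.91 and 6.89 FPKM with SCR, and its SCR libraries lay further apart than its PTP2 libraries. Its log2 fold change was 0.79 (SE 0.08, adjusted p = 0.00290). It did not pass without PTP2 replicate 1 (0.76) or without PTP2 replicate 2 (0.82), and its adjusted p ran from 1.07e-04 to 0.0698 over the alternatives.

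MAFF (Gene ID 23764, chr22:38201932-38216511, plus strand), a small Maf protein, had 22.4 and 23.5 FPKM with PTP2 and 14.1 and 13.8 FPKM with SCR. The groups did not overlap. MAFF had a log2 fold change of 0.68 (SE 0.04, adjusted p = 7.75e-04). PLA2G6 overlaps the start of MAFF on the other strand and had 1.02 and 1.13 FPKM with PTP2 against 1.53 and 1.46 FPKM with SCR.

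The order of the genes by level changed between groups. With SCR it ran JUND, FOSL1, JUN, FOSL2, JUNB, MAFF, ATF3, BATF3, FOS and FOSB. Only ATF3 and BATF3 overlapped between neighbours in that order. With PTP2 it ran FOSL1, JUND, JUN, JUNB, FOSL2, MAFF, ATF3, BATF3, FOSB and FOS, and only MAFF and ATF3 overlapped. FOSL1 passed JUND, JUNB passed FOSL2, and FOSB passed FOS.

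Summed over the family in FPKM as deposited, the Fos transcripts were higher with PTP2 while the Jun sums overlapped. The Fos sum was 612 and 630 FPKM with PTP2 and 184 and 183 FPKM with SCR. The Jun sum was 278 and 268 FPKM with PTP2 and 276 and 271 FPKM with SCR. The ratio of the Fos sum to the Jun sum was therefore 2.21 and 2.35 with PTP2 and 0.669 and 0.677 with SCR. With 2 libraries a group the smallest 2-sided p of an exact permutation test is 0.333, so these sums are given as a description.

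Within the Fos family FOSL1 made up 92.6% ± 0.02 of the summed FPKM with PTP2 and 62.9% ± 0.50 with SCR (SD, n = 2 each). FOSL2 made up 6.76% ± 0.03 and 36.5% ± 0.43. The FOSL1 level was 13.7 times that of FOSL2 with PTP2 and 1.72 times with SCR. Within the Jun family JUNB made up 19.4% ± 0.50 with PTP2 and 9.86% ± 0.14 with SCR. JUND made up 46.2% ± 0.49 and 55.0% ± 0.76, and JUN 34.5% ± 0.99 and 35.2% ± 0.62. The makeup of the Jun sum therefore moved, while its size in FPKM as deposited did not differ beyond the spread. The FPKM of all genes summed to 444265 and 438504 with PTP2 and to 424645 and 419861 with SCR. The Jun sums were not rescaled for this, so whether their size was the same is not settled.

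**Figure D3:**
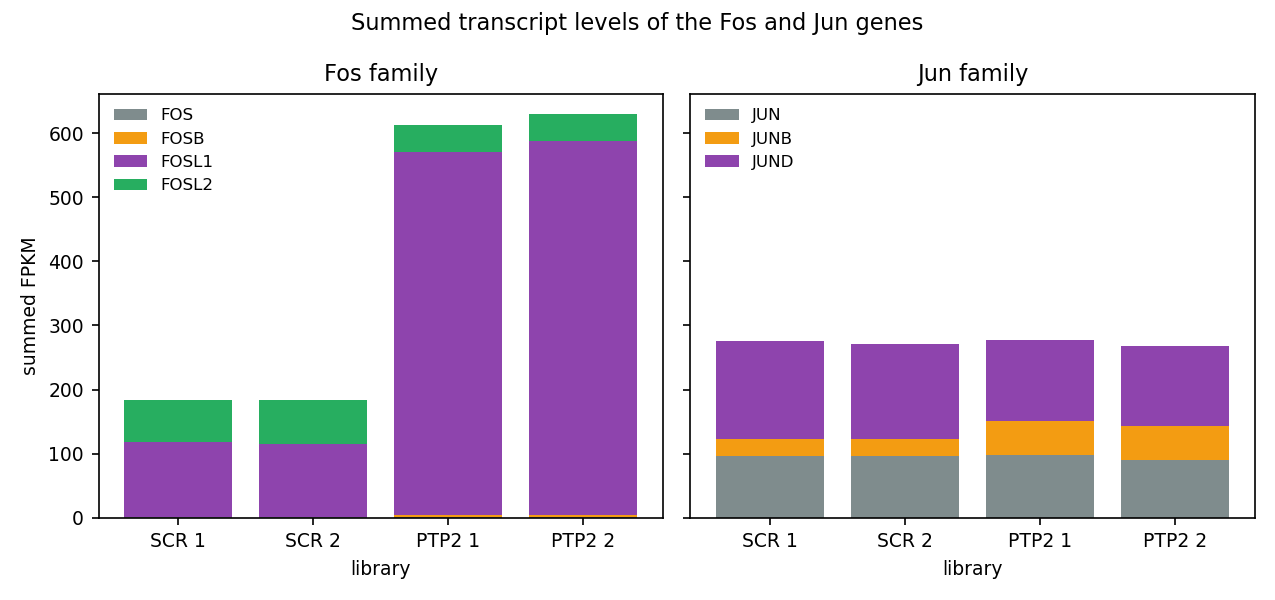
Summed FPKM of the 4 Fos genes (left) and the 3 Jun genes (right) in each library, stacked by gene from 0. The Fos bars reach 612 and 630 with PTP2 against 184 and 183 with SCR. FOSL1 makes up 92.6% of the sum with PTP2 and 62.9% with SCR, and the Jun bars stay between 268 and 278.

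The promoters of the members were searched for 4 motifs on both strands, in RefSeq windows (GRCh38.p14) from 250 bases before to 50 after each start. Windows were found for 8 members, 10 windows in all. FOSL1 and BATF3 were not among them. The AP-1 site TGACTCA was found in 4.95% of all 35116 windows, TGACGTCA in 1.85%, its variant TGACATCA in 2.61% and the serum response element CArG box in 1.29%. No matches overlapped in the members' windows. The 5 matches are printed because they show which AP-1 genes carry, beside their start, letters that AP-1 or ATF proteins are known to bind. Each is 30 bases, with the match in capitals. Positions count from the transcript start of the RefSeq window, which for these 5 genes is not the gene start given above. By the gene start given above, the FOSL2 match lies before the gene, the MAFF match lies inside it and the JUN match spans the start.
FOSL2, chr2:28392851-28392880, plus strand, AP-1 site 5 to 11 bases after the start: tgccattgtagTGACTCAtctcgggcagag
JUND, chr19:18281804-18281833, minus strand, from -200 to -193: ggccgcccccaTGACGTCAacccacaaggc
MAFF, chr22:38201929-38201958, plus strand, from -54 to -47: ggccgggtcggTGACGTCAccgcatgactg
JUN, chr1:58784096-58784125, minus strand, from -67 to -60: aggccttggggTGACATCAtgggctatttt
ATF3, chr1:212565273-212565302, plus strand, from -123 to -116: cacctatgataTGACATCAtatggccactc

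FOSL2 and JUND, the members that fell, and MAFF and ATF3, members that rose, all had a match, and so did JUN. The windows of FOS, FOSB and JUNB held no match to these letters. No CArG box was found in the members' windows, and sites further than 250 bases before the start were not searched. A match is a description of the sequence and was not tested for binding.

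Other bZIP genes showed no common direction. Of 27 listed, 8 rose, 7 fell and 12 did not pass, with a median log2 fold change of 0.03. These shares were near those of all genes tested, of which 30.8% rose and 27.1% fell. The counts of the lists below stand against the same shares, and against 2.63% and 4.06% past the stricter thresholds. Without SCR replicate 1, and likewise without SCR replicate 2, 4 rose and 4 fell. The only changes past the stricter thresholds were falls. JDP2, a repressor that pairs with Jun proteins, had 1.92 and 1.77 FPKM with PTP2 and 10.7 and 9.63 FPKM with SCR (log2 fold change -1.97, SE 0.06, adjusted p = 3.57e-04). Among the 37 bZIP genes together, FOSL1 was in place 1 by level with PTP2 and in place 4 with SCR, where ATF4 was in place 1.

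The kinases and factors known to act upstream of the Fos and Jun genes moved in both directions. Of 26 MAP kinases, their activating kinases, ribosomal S6 kinases and SRF with its partners, 7 rose, 11 fell and 8 did not pass (median -0.07). Without SCR replicate 1 or without SCR replicate 2, 5 fell, and without PTP2 replicate 2, 6 fell. Without SCR replicate 1, 4 rose. Only MAP2K3, an activator of p38 kinases, passed the stricter thresholds. It had 60.6 and 55.1 FPKM with PTP2 and 21.3 and 21.8 FPKM with SCR (log2 fold change 1.38, SE 0.06, adjusted p = 4.91e-04).

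Of 8 genes that control turnover of Jun and Fos proteins, 3 rose, 1 fell and 4 did not pass. TRIB1, an adaptor of the COP1 ubiquitin ligase, had 13.7 and 12.8 FPKM with PTP2 and 8.05 and 8.42 FPKM with SCR (log2 fold change 0.62, SE 0.05, adjusted p = 0.00173), and it did not pass without SCR replicate 1 (0.60). ITCH, a ubiquitin ligase of Jun proteins, had 19.2 and 20.2 FPKM against 13.4 and 14.1 FPKM (log2 fold change 0.49, SE 0.05, adjusted p = 0.00247).

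Other immediate early genes were mixed. Of 22 listed, 11 rose, 5 fell and 6 did not pass, with a median log2 fold change of 0.23. Without PTP2 replicate 2, 6 rose, and without PTP2 replicate 1, 3 fell. ARC, an early gene of neurons, had 7.87 and 7.36 FPKM with PTP2 and 1.92 and 1.66 FPKM with SCR (log2 fold change 1.63, SE 0.07, adjusted p = 4.63e-04). CTGF, a matricellular protein gene, had 4.83 and 4.63 FPKM with PTP2 and 14.3 and 13.6 FPKM with SCR (log2 fold change -1.39, SE 0.04, adjusted p = 3.42e-04). SGK1, a kinase gene induced by serum and glucocorticoids, fell as well, from 27.7 and 25.7 FPKM with SCR to 12.4 and 11.9 FPKM with PTP2 (log2 fold change -1.07, SE 0.05, adjusted p = 6.10e-04).

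Genes that textbooks give as AP-1 targets were mostly higher. Of 25 listed, 18 rose, 5 fell and 2 did not pass, where 30.8% of all genes rose and 27.1% fell. Past the stricter thresholds 11 rose and 2 fell, where 2.63% of all genes rose and 4.06% fell. The median log2 fold change was 0.87 over the list and 0.01 over all genes. This list was chosen with earlier results of these data known, and many of its genes also answer to NF-kappa B. IL1B, an inflammatory cytokine, had 2817 and 2782 FPKM with PTP2 and 43.5 and 42.8 FPKM with SCR (log2 fold change 5.99, SE 0.03, adjusted p = 6.90e-05). MMP3, stromelysin, had 229 and 228 FPKM with PTP2 and 3.82 and 4.06 FPKM with SCR (log2 fold change 5.54, SE 0.04, adjusted p = 8.00e-05). MMP1, interstitial collagenase with an AP-1 site in its promoter, had 33.4 and 30.3 FPKM against 0.79 and 0.69 FPKM (log2 fold change 4.24, SE 0.06, adjusted p = 1.58e-04). The 5 that fell were CCL2, IL11, PLAU, SPP1 and VEGFA, named after their values were seen.

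**Figure D4:**
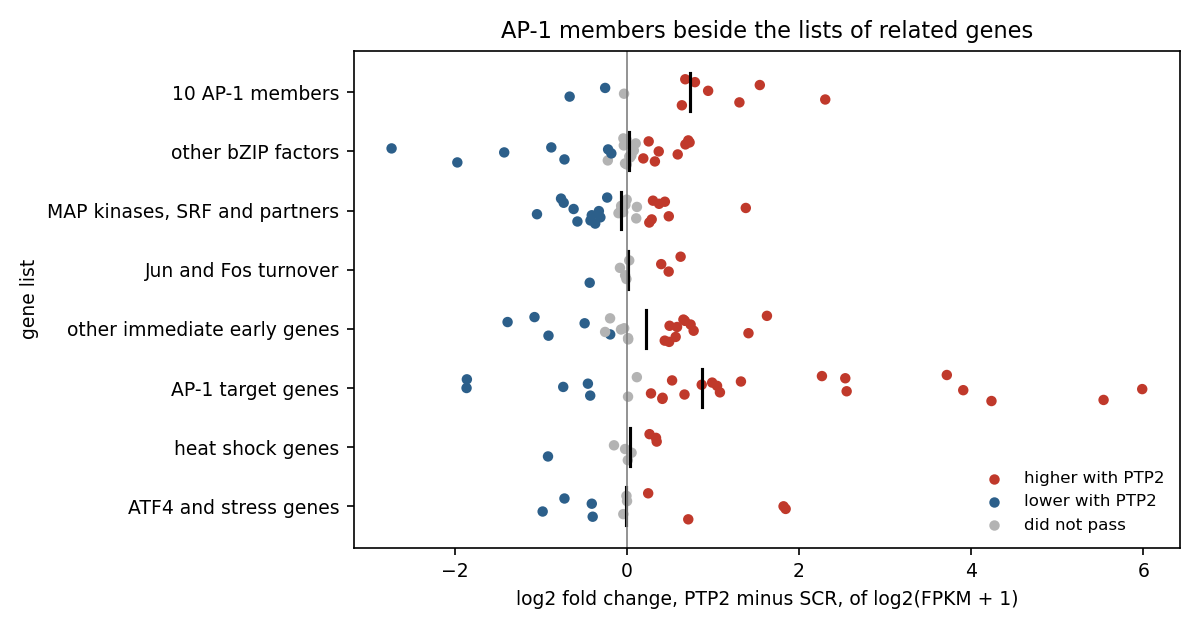
Log2 fold change, PTP2 minus SCR, of the 10 AP-1 genes and of the genes of 7 lists, with a point for each gene (red higher, blue lower, grey not past an adjusted p of 0.05) and a black line at the median. The medians of the AP-1 genes (0.73) and of the AP-1 target genes (0.87) lie to the right of the other lists.

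Genes of stress responses in which ATF3 is also induced showed no common direction. Of 8 heat shock genes, 3 rose, 1 fell and 4 did not pass, and with quantile normalization 1 rose and 3 fell. HSPA1B had 35.8 and 33.7 FPKM with PTP2 and 67.4 and 65.5 FPKM with SCR (log2 fold change -0.92, SE 0.04, adjusted p = 6.05e-04), but it shares almost all of its sequence with HSPA1A and its reads may be split between them. BAG3, a co-chaperone, had 44.4 and 44.2 FPKM against 34.4 and 34.8 FPKM (log2 fold change 0.35, SE 0.03, adjusted p = 0.00178). Of 11 genes of the ATF4 and stress response, 4 rose, 4 fell and 3 did not pass. ATF4 itself, named after its values were seen, was among the 4 that fell. It had 140 and 143 FPKM with PTP2 and 233 and 236 FPKM with SCR (log2 fold change -0.72, SE 0.03, adjusted p = 5.21e-04). PPP1R15A, a phosphatase subunit that restores translation after stress, had 50.6 and 52.8 FPKM with PTP2 and 14.6 and 12.8 FPKM with SCR (log2 fold change 1.84, SE 0.07, adjusted p = 4.54e-04). GADD45A, a growth arrest gene, had 93.2 and 91.5 FPKM against 26.4 and 24.5 FPKM (log2 fold change 1.82, SE 0.05, adjusted p = 3.04e-04).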

How the data were processed

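RNA-seq of 4 U87 libraries (2 PTP2, 2 SCR, grouped by title and genotype) was used. The authors deposited an FPKM value per gene and library in 2 tables, and 0 of 66380 values differed between them. The submitters' processing notes name HISAT2 2.1.0 and hg19, but gene positions in the file are on GRCh38. The counting program and strand setting are not given in the sources used here. Mean columns and the authors' own comparisons (fold changes, p-values and related scores) were not used. All 16595 genes with a positive FPKM somewhere were fitted in limma 3.58.1 (R 4.3.3) on log2(FPKM + 1), with group as sole term, with default eBayes and Benjamini-Hochberg adjustment, after the method was tested on simulated data. Depth was estimated from FPKM steps, at 18300000 to 19800000 reads per library. Alternatives were another pseudocount, filter, scaling, replicate block, variance trend and leaving out each library.

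The members and gene lists were chosen with earlier results of these data known. Named genes were all members, PTPRN and, per list, up to 3 genes with the largest fold change past the stricter thresholds with a mean of at least 5 FPKM in the higher group, or up to 2 past an adjusted p of 0.05 if none passed. A gene that this rule names is not reported here. Coding bases of GENCODE 29 transcripts stood in for a planned protein comparison. Motifs were searched in RefSeq promoter windows with Python 3.11.15. Libraries of a group were alike (Pearson r = 0.999 across genes) but not the same data deposited again. Squared differences averaged 2.02 to 2.08 times the estimated counting variance, with medians of 0.68 to 0.71. Under counting error alone the median of squared differences also lies below their average. The medians therefore do not show less spread than counting error. None of this shows that the libraries of a group came from separate cultures.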

Additional observations from a re-analysis of the deposited data

How the results depend on the processing

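The direction of 9 members was the same under all 12 alternatives, and JUN ran from -0.0865 to 0.022 without 1 library, positive only without PTP2 replicate 2. For these 9 members many alternatives could not change the direction. The filter, replicate block and variance trend leave the log2 fold change as it was. Leaving out 1 library cannot reverse a gene whose groups do not overlap, which holds for all 9. At an adjusted p of 0.05, members called numbered 7 to 9 without 1 library, 6 to 7 of them higher and 1 to 2 lower, against 9, 7 and 2. All genes called numbered 9603, and 6181 to 6332 without 1 library. Past the stricter thresholds 0 members and 0 genes passed without any 1 library, with a pseudocount of 0.1 and with the replicate block, against 3 members and 1111 genes. The block and the left-out libraries leave fewer degrees of freedom, and for the pseudocount the cause was not tested. At an unadjusted p below 0.05, 9 members passed in each of these, beside 61.4% of all genes with the pseudocount, 60.9% with the block and 52.4% to 53% without 1 library. Median-ratio scaling, TPM rescaling and, chosen after seeing the data, a pseudocount of 0.1 with a variance trend each left 2 members.

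The replicate numbers are shared by both groups, but nothing in the labels ties them, and replicate differences correlated at 0.06 between groups (11272 genes), so no pairing was used. With the replicate block 9 members and 9139 genes passed 0.05. With 2 libraries a group, FOS and FOSB, at 0.36 to 2.71 FPKM, are the members most limited by depth.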
